A study of Mus musculus with 6 samples.

Results

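Cd142+ fibroblasts are stromal cells of mouse inguinal white adipose tissue (iWAT, the subcutaneous depot of the groin) that carry F3 and Fmo2. They were chosen by their measured counts. A barcode was taken as a fibroblast when it had at least 2000 UMIs (unique molecular identifiers, each standing for 1 captured transcript), under 10% of its UMIs from mitochondrial (mt-) genes, Dcn at 30 or more per 10000 UMIs, and no UMI of the endothelial genes Pecam1 and Cdh5 or the leukocyte gene Ptprc. A fibroblast was taken as Cd142+ when it had at least 1 UMI of F3, at least 2 UMIs of Fmo2 and Cyp2f2 together, and at most 2 UMIs of Pi16. Of 68103 barcodes in 6 libraries, 46975 were fibroblasts and 1513 were Cd142+ fibroblasts, which is 3.22% of the fibroblasts. No barcode sequence was a member in more than 1 library, and 255 of 46720 distinct fibroblast barcodes occurred in more than 1 library.

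The libraries held live stromal vascular cells of C57BL/6 mice from which CD45+ leukocytes had been removed by sorting, sequenced with 10x 3' chemistry. Young mice were 9 weeks old and aged mice 57 weeks. Housing was at 30 °C, near thermoneutrality (TN) for the mouse, in every group at first, and the cold groups were later moved to 6 °C for 3 days (3D) or 14 days (14D) before collection. Each of the 6 combinations of age and temperature was 1 library, with no number of mice given for it (per the study's methods, animals were kept separate where pooling is not mentioned). No combination had a second library, so p-values do not measure the spread between libraries of the same kind. In the age and temperature fits they rest on what those terms leave over, with 2 residual degrees of freedom. There, differences between libraries of the same kind cannot be told apart from an age effect that varies with temperature.

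Members numbered 240, 364 and 259 in the young TN, 3D and 14D libraries and 275, 234 and 141 in the aged ones, and values below keep this order. Their median depth was 10607, 7690 and 7408 UMIs in young and 7268, 6375 and 6430 UMIs in aged mice, so every aged library was shallower than every young one. The aged 14D library stood apart: 7145 of its 11903 barcodes passed the UMI and mitochondrial limits, against 8771 of 10172 in the young TN library, the next lowest number. It also held the fewest members, and the counts of age and temperature calls below are given with and without it. A doublet score marking 0.8% of barcodes per 1000 barcodes in a library placed 9.72% of members and 9.86% of all fibroblasts among the marked. These barcodes were kept, and the fits were repeated without them.

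F3 encodes tissue factor (CD142), the membrane receptor for coagulation factor VII that starts the extrinsic clotting pathway. In adipose tissue, stromal cells with CD142 on their surface have been described in some work as cells that restrain fat cell formation and in other work as committed preadipocytes. Fmo2 and Cyp2f2 encode a flavin monooxygenase and a cytochrome P450, which both oxidize foreign compounds, and Clec11a encodes osteolectin, a secreted factor that promotes bone formation.

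The promoters of 3 genes are shown because F3 defines the cells, Clec11a marked them without being used to choose them, and Igfbp3, which encodes a carrier of insulin-like growth factors, was among the genes that rose most in cold. Each line holds the 250 bases before the RefSeq start of the gene (GRCm38.p6), 5′ to 3′ on the gene's strand, with capitals marking any match, on either strand, to the AP-1 motif (TGANTCA), part of the cAMP response element or CRE (TGACG), the TATA box (TATAAA), the GC box (GGGCGG), the CAAT box (CCAAT) or the E-box (CACGTG). The lines come from chr3:121723287-121723536 on the plus strand, chr7:44306960-44307209 on the minus strand and chr11:7213924-7214173 on the minus strand.
F3: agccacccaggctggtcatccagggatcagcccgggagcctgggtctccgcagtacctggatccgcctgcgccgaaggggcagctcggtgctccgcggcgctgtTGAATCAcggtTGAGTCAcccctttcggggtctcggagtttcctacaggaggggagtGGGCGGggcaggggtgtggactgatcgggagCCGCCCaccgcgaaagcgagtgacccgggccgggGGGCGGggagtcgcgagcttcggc
Clec11a: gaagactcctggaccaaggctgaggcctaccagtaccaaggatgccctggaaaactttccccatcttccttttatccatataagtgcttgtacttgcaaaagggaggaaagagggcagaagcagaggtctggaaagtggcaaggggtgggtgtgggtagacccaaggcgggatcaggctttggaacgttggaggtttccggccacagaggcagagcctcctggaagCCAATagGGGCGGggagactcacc
Igfbp3: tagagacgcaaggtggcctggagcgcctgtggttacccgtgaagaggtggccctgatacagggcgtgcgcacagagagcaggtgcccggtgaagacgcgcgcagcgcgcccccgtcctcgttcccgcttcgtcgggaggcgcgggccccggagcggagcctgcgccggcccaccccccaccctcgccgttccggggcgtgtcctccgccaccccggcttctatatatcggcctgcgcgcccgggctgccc

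The F3 window held 2 AP-1 matches, 146 to 140 and 135 to 129 bases before the start, and 3 GC boxes. The Clec11a window held a CAAT box 24 to 20 bases and a GC box 17 to 12 bases before the start, and the Igfbp3 window held none of the 6 motifs. Among 27025 promoter windows of the same length, AP-1 matched in 6.87%, the CRE part in 17.9%, the TATA box in 13%, the GC box in 32.9%, the CAAT box in 34.5% and the E-box in 6.05%. A match describes letters, not a bound site.

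F3 was a sparse transcript in the cells chosen by it. Its median was 2 UMIs per cell and its highest value 44. A single F3 UMI was present in 623 members (41.2%), and 275 (18.2%) had 5 or more. Fmo2 met the enzyme condition for most cells, with at least 2 UMIs in 1372 members (90.7%). Cyp2f2 was carried by a minority: 286 members (18.9%) had any UMI of it, 189 had 2 or more, and 75 were members with no Fmo2 at all.

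Genes that the rule did not use are described next, without a test, since they come from the same cells. Shares of cells with a UMI were taken after thinning every barcode to 2000 UMIs, and are given for members, for Pi16+ fibroblasts (22201 barcodes with Pi16 at 3 or more and Fmo2 plus Cyp2f2 at 1 or less) and for preadipocytes (15758 barcodes with Col15a1 at 2 or more, Pi16 at 2 or less and Fmo2 plus Cyp2f2 at 1 or less). Clec11a was detected in 16.3%, 0.833% and 1.69%. Gdf10, a secreted protein of the TGF-beta family, was detected in 62.4%, 11.6% and 24.2%. Mgp (matrix Gla protein), an inhibitor of calcification, was detected in 33.5%, 1.69% and 3.52%. These 3 genes were thus several times as frequent in members as in either of the other populations, except Gdf10 against preadipocytes. Meox2, a homeobox transcription factor, was detected in 12.8%, 1.31% and 1.76%.

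Other listed markers were shared with preadipocytes. Igfbp3 was shared more with Pi16+ fibroblasts, at 29.9%, 19.2% and 8.28% in the same order. Bgn (biglycan) was detected in 83.5%, 10.3% and 69.4%, and Cygb (cytoglobin) in 74.4%, 21.6% and 67.6%. Inmt, an indolethylamine methyltransferase, was detected in 76.7%, 35.3% and 48.3%. Abcg1, a lipid exporter, was seen in 1.65% of members. Dpp4, a marker of the Pi16+ cells, was detected in 2.78%, 60.7% and 2.46%. Col15a1, which defined the preadipocytes, was found in 47.6% of members, and 890 members (58.8%) carried at least 2 UMIs of it before thinning.

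Shares were also taken in 4172 endothelial barcodes, as cells of another type in the same libraries, whose median depth before thinning was 3618 UMIs against 7420 in members. They gave 0.503% for F3, 0.312% for Cyp2f2, 0.0719% for Clec11a and 1.17% for Gdf10, each below the share in members. Fmo2 (15.9%), Meox2 (28.2%), Igfbp3 (13%), Bgn (12%) and Mgp (5.73%) were detected there more often. Meox2 and Abcg1 (5.94%) were more frequent in endothelial barcodes than in members, and both were less frequent in Pi16+ fibroblasts and preadipocytes (Abcg1 0.239% and 0.241%) than in members, so the endothelial share is not a background level for them.

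Genes of other cell types were read in the members' summed UMIs, given as CPM. These are counts per 1000000 of the members' UMIs in a library, scaled by edgeR's TMM factors. Since 3' tags are not scaled to length, a gene named as the most abundant is so in UMIs only. Levels are otherwise not compared between genes. The 12 macrophage genes summed to 22.7, 15.5 and 18.3 CPM in young and 20.7, 20.4 and 30.0 CPM in aged libraries, with Cd68 the most abundant and Adgre1 at 0. The 8 endothelial genes summed to 45.8, 58.4 and 68.5 CPM in young and 38.4, 31.6 and 48.9 CPM in aged libraries, with Plvap the most abundant. The 10 adipocyte genes summed to 23.9, 41.9 and 35.6 CPM in young and 46.5, 47.3 and 102 CPM in aged libraries, with Car3 the most abundant. The aged 14D library was the highest for the macrophage and adipocyte genes, and every aged library lay above every young one for the adipocyte genes. The 8 epithelial genes summed to 61.1 CPM in the aged TN library and to at most 0.405 CPM in each of the other libraries, with Krt18 the most abundant and Krt14, Krt5 and Wfdc18 at 0 in all. The 8 Schwann genes were not low, at 438, 432 and 336 CPM in young and 454, 409 and 369 CPM in aged libraries, of which Scn7a averaged 378 CPM, with Sox10 at 0.

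**Figure D1:**
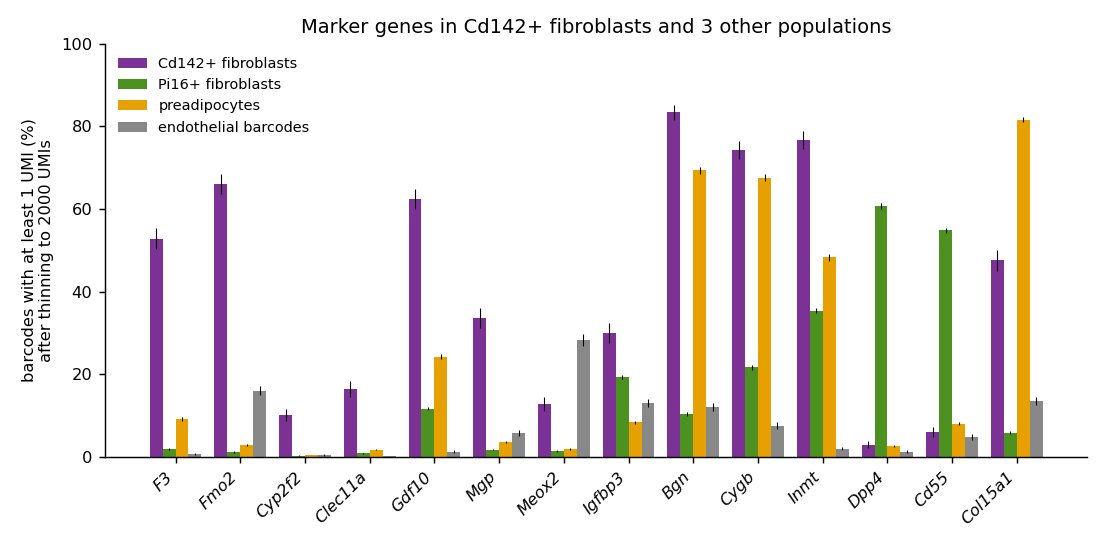
Percent of barcodes with at least 1 UMI after thinning to 2000 UMIs (y axis) for 14 genes (x axis) in 4 populations pooled over 6 libraries, with error bars for the exact 95% binomial interval of each share. F3, Fmo2, Cyp2f2, Pi16 and Col15a1 were used to form the populations. Clec11a and Mgp bars are highest in Cd142+ fibroblasts, Bgn and Cygb bars are also high in preadipocytes, and Dpp4 and Cd55 bars are high in Pi16+ fibroblasts.

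The edges of the rule were gradual. Members with exactly 2 Fmo2 plus Cyp2f2 UMIs (453 cells) showed Gdf10 in 52.8%, Mgp in 23.4% and Clec11a in 11.5%. The 818 fibroblasts just outside, with F3 but 1 such UMI, showed 47.4%, 18.2% and 6.85%. The 1523 fibroblasts that met the enzyme condition without an F3 UMI showed 50.5%, 16.6% and 12%. Fibroblasts just outside therefore carried the same markers at somewhat lower shares, apart from Clec11a in the cells without F3. At the Pi16 limit, the 84 members with 2 Pi16 UMIs had Dpp4 in 4.76%, and the 32 fibroblasts just outside with 3 had it in 15.6%.

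Members also varied among themselves. Members with at least 2 Cyp2f2 UMIs carried Igfbp3 in 55.6%, Mgp in 27.5% and Col15a1 in 34.9% of cells. The 1227 members without Cyp2f2 carried them in 24.8%, 34.8% and 50.9%. Members with 2 or more F3 UMIs showed Mgp in 37.0% and Clec11a in 19.7%, and those with 1 showed 28.6% and 11.6%.

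The first comparison asked whether the share of Cd142+ fibroblasts differs with age. They made up 3.32, 4.17 and 2.77% of fibroblasts in young and 3.94, 2.70 and 2.35% in aged libraries. The ages overlapped, with means of 3.42% ± 0.705 in young and 3.00% ± 0.833 in aged mice (SD, n = 3 libraries; exact two-sided permutation test, p = 0.5, where 0.1 is the smallest p that 3 against 3 libraries allow). Applied to counts thinned to 2000 UMIs, the rule kept 384 cells, at 0.647, 1.19 and 0.789% in young and 0.694, 0.669 and 0.746% in aged libraries. The young 3D library was the highest at either depth. No difference between ages was detectable with 3 libraries each.

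**Figure D2:**
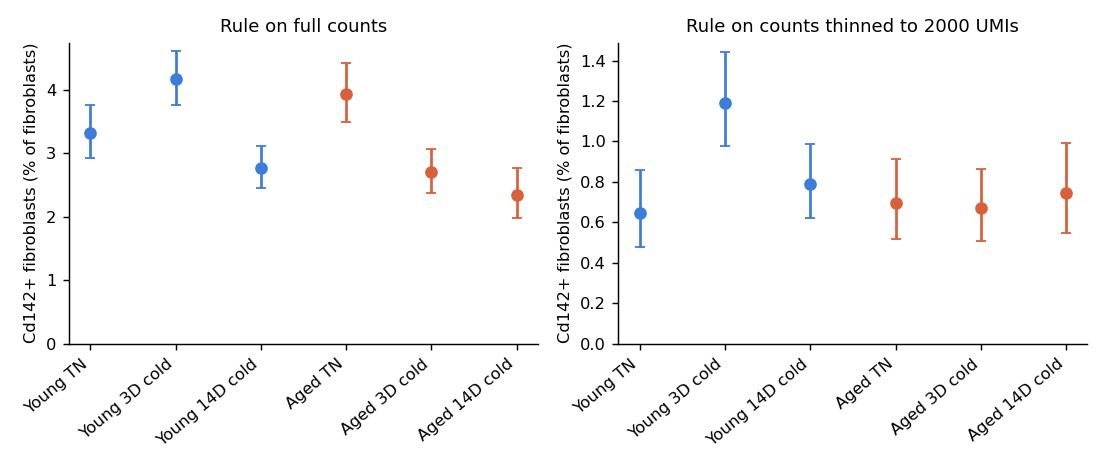
Cd142+ fibroblasts as a percent of all fibroblasts (y axis) in each library (x axis), blue for young and red for aged, by the rule on full counts and on counts thinned to 2000 UMIs. Bars are exact 95% binomial intervals, and the young 3D library is the highest in both panels.

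The comparison of aged with young mice asked which transcripts differ within Cd142+ fibroblasts. UMIs were summed over the members of each library and tested in edgeR across all genes with temperature as a term, and genes with a Benjamini-Hochberg adjusted p below 0.05 were called. Of 9332 genes tested, 211 (2.26%) were higher and 201 (2.15%) lower in aged mice. Type I and III collagen, Igf1 and several imprinted genes were among the lower ones, and Cdkn1c, lipid carriers and enzymes of xenobiotic metabolism among the higher ones. Without the aged 14D library 564 genes were called, 363 of the 412 among them. Aged and young libraries did not overlap for 18.0% of all genes tested, and for 333 of the 412. Without the aged or the young TN library 129 or 149 genes were called, and all 412 kept their direction with any 1 library left out. With equal numbers of members per library thinned to 2000 UMIs, 138 of 3942 genes tested were called. This evens the depth of the sums, but the members were still chosen on full counts. With members chosen on thinned counts, 214 of 4431 genes tested were called.

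Of 26 collagen and matrix genes tested, 14 were lower and 3 higher with age, and their median log2 fold change was −0.45, where that of all genes tested was 0.00. Col1a1, a chain of type I collagen, stood at 10200, 7550 and 10800 CPM in young and 3570, 1720 and 4030 CPM in aged libraries. Every aged library lay below every young one, and the log2 fold change was −1.69 ± 0.15 (SE; edgeR adjusted p = 4.84e-05). Col3a1, the chain of type III collagen, stood at 21000, 11900 and 19800 CPM in young and 9960, 4230 and 9260 CPM in aged libraries (log2 fold change −1.22 ± 0.15). It was also separated by age, and in both ages it was lowest after 3 days of cold. Postn, the matrix protein periostin, stood at 168, 49.2 and 74.3 CPM in young and 19.2, 2.63 and 48.9 CPM in aged libraries (−2.33 ± 0.37), a call kept under 11 of 15 alternatives (other settings of the processing, described with the methods) and lost in DESeq2, without either TN library and without the temperature term, with values from −3.31 to −1.578. Col14a1 (−1.33), Col1a2 (−1.25), Col15a1 (−0.78) and Col5a1 (−0.78) were lower as well. Thbs2 (0.96), Thbs1 (0.67) and Lox (0.71), the last encoding an enzyme that cross-links collagen, rose.

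**Figure D3:**
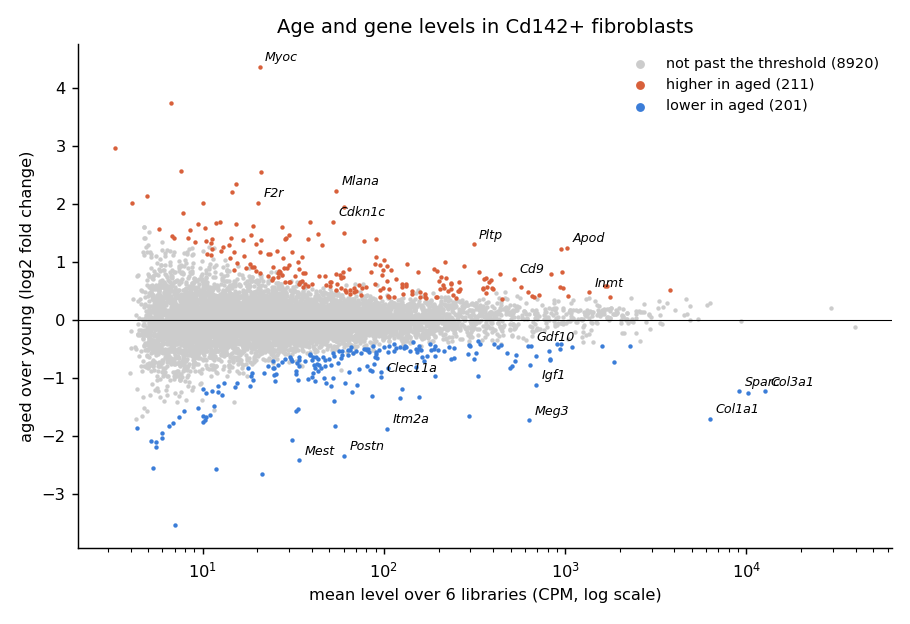
Log2 fold change of aged over young (y axis) against the mean level over 6 libraries (x axis, CPM on a log scale) for the genes tested in Cd142+ fibroblasts, 1 point per gene, with the 211 higher and 201 lower genes coloured. The called genes lie on both sides of 0, and Col1a1 at −1.69 and Col3a1 at −1.22 lie among the most abundant of those below it.

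Imprinted growth genes, which are expressed from 1 parental copy, were called in both directions. Of 11 tested, 5 were lower and 2 higher (median −0.65). Meg3, a long noncoding RNA, stood at 1160, 867 and 852 CPM in young and 470, 220 and 223 CPM in aged libraries (−1.72 ± 0.13, edgeR adjusted p = 2.08e-05). Mest stood at 97.6, 31.0 and 43.4 CPM in young and 15.1, 9.86 and 6.67 CPM in aged libraries (−2.41 ± 0.21). Both were separated by age, and Peg3 (−1.82), Zim1 (−1.82) and Mirg (−2.03, called under 4 of 10 alternatives) were lower too. Cdkn1c, which encodes the cell cycle inhibitor p57, stood at 24.3, 26.4 and 23.0 CPM in young and 82.8, 77.6 and 81.1 CPM in aged libraries (1.70 ± 0.13, edgeR adjusted p = 2.08e-05). The ages did not overlap, but with members chosen on thinned counts the value was 0.571 and the gene was not called. Dlk1, the other higher gene, rested on 9 members.

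The largest falls among called genes with a mean of at least 20 CPM and the same direction at all 3 temperatures included Mest, Postn, Pdgfrl (−2.07), Itm2a, Peg3, Meg3, Col1a1, Ifi27l2a (−1.64, an interferon-responsive gene) and Xpnpep2 (−1.56, a membrane peptidase). Itm2a, which encodes a membrane protein, stood at 199, 138 and 156 CPM in young and 52.5, 38.8 and 43.3 CPM in aged libraries (−1.87 ± 0.11, edgeR adjusted p = 3.49e-06). Every aged library was below every young one.

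The 10 largest rises within the same limits were Myoc, Gm14964 (2.56), Mlana, F2r, Hmcn2 (1.95), Cdkn1c, Slco2a1, Sgip1 (1.61), Pla1a and Tuba4a (1.48). F2r, the thrombin receptor PAR1, stood at 7.29, 8.09 and 8.37 CPM in young and 32.3, 31.6 and 33.3 CPM in aged libraries (2.03 ± 0.21). Mlana stood at 10.9, 31.0 and 15.7 CPM in young and 70.2, 111 and 88.9 CPM in aged libraries (2.24 ± 0.17). Slco2a1, a prostaglandin transporter, stood at 20.7, 21.5 and 12.5 CPM in young and 54.0, 75.6 and 50.0 CPM in aged libraries (1.69 ± 0.16). These 3 genes were separated by age, as was Pla1a, a phospholipase, at 37.3, 25 and 31.9 CPM in young and 83.8, 92.0 and 90.0 CPM in aged libraries (1.50). Myoc (myocilin) had the largest value of the 10, 4.37 ± 0.36, but 24 members carried it. Its ages overlapped, at 0.405, 0.352 and 5.23 CPM in young and 3.53, 29.6 and 84.4 CPM in aged libraries, and 1 cell supplied 57.8% of its UMIs in the aged 3D library and 1 cell 56.6% in the aged 14D library.

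In the coagulation and fibrinolysis list, to which the partners of tissue factor belong, 3 of 13 tested genes were higher with age and 0 lower (median 0.07). They were F2r, Plau (urokinase, 0.89) and Serpine2 (a thrombin and plasminogen activator inhibitor). Serpine2 stood at 217, 174 and 216 CPM in young and 314, 316 and 320 CPM in aged libraries (0.65 ± 0.10). The age effect of F2r in preadipocytes was 2.48, and 0 of 14 tested genes of this list differed from preadipocytes in age effect. Against Pi16+ fibroblasts 2 of 14 had a higher age effect, Plau and Serpine2, and 0 a lower one. F3 itself, used to choose the cells and not tested, stood at 328, 421 and 430 CPM in young and 360, 427 and 431 CPM in aged libraries.

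Of the xenobiotic metabolism list, 6 of 26 tested genes were higher and 0 lower (median 0.28). The glutathione transferase Gsta3 stood at 6.48, 3.17 and 5.75 CPM in young and 34.3, 21.0 and 21.1 CPM in aged libraries (2.35 ± 0.26). Cyp4b1 (1.63), Gsta4 (1.36), Inmt (0.49), Gstm1 (0.49) and Gstt1 (0.40) were the others. The call was kept under 8 of 15 alternatives for Inmt, 8 of 15 for Gstm1 and 6 of 12 for Gsta4, against 13 of 13 for Gsta3 and 12 of 13 for Cyp4b1. Fmo2, not tested, stood at 516, 584 and 601 CPM in young and 510, 614 and 551 CPM in aged libraries, and Cyp2f2 at 62.8, 75.6 and 85.8 CPM in young and 38.9, 88.1 and 96.7 CPM in aged libraries.

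Of 9 Cd142+ markers outside the rule, Clec11a and Gdf10 were lower and Inmt higher with age. Clec11a stood at 135, 77.7 and 173 CPM in young and 63.6, 47.3 and 81.1 CPM in aged libraries (−0.98 ± 0.12, edgeR adjusted p = 0.000299). The ages overlapped across temperatures, since the aged 14D library lay above the young 3D library. Gdf10 stood at 763, 694 and 787 CPM in young and 619, 505 and 529 CPM in aged libraries (−0.44 ± 0.10, edgeR adjusted p = 0.0241), and it was no longer called with any 1 library left out. Mgp (−0.02), Igfbp3 (−0.15), Bgn (−0.23) and Meox2 (−0.26) were not called.

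Igf1, insulin-like growth factor 1, stood at 1170, 604 and 1070 CPM in young and 516, 328 and 451 CPM in aged libraries (−1.11 ± 0.11). In the IGF list 4 of 11 genes were lower, the others being the signal adaptor Irs1 (−0.76) and the carriers Igfbp4 (−0.62) and Igfbp5 (−0.44), and the receptor gene Igf1r (0.44) was higher. The call was kept under 6 of 15 alternatives for Igfbp5, 9 of 15 for Irs1 and 12 of 15 for Igfbp4, and the values of Igfbp5 and Irs1 reached −0.057 and −0.162. Of the cholesterol efflux list 3 of 11 were higher, Pltp and Apod (1.26) among them. Pltp, the phospholipid transfer protein, stood at 156, 184 and 190 CPM in young and 317, 506 and 521 CPM in aged libraries (1.32 ± 0.11), without overlap. Of the adipogenesis list 3 of 18 were higher, the lipid droplet gene Plin2 (1.01), the fatty acid carrier Fabp4 (0.79) and Dlk1, and the lipase Lpl (−0.44) was lower, a call lost with any 1 library left out. The summed adipocyte genes given above, none of them on this list, were also separated by age, and their part in these calls was not tested. Cd9, a tetraspanin, rose (0.72), Gpnmb rose (0.84) and Gpc3, a glypican, fell (−1.32).

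Of 13 retinoid genes Aldh1a2, which makes retinoic acid, was higher (1.43, in 36 members, called under 4 of 13 alternatives) and Epha3 (−0.99) and Rbp4 (−0.76) were lower. Of 26 BMP and TGF-beta genes Tgfbr1, Bmp2 and Id3 were higher, and Chrdl1 and Gdf10 were among the lower ones. Of 15 mineral-related matrix genes the bone transcription factor Runx2 was higher (1.42, called under 6 of 11 alternatives) and Sparc (−1.22), Clec11a and Aspn (−0.48) lower. Of 12 complement genes C7 (0.85) and Clu (0.84) were higher and C2 (−0.43, called under 6 of 15 alternatives) lower, and of 17 interferon and MHC class I genes Ifit3 (−0.93) and Ifi27l2a were lower. Of 12 preadipocyte markers Dlk1, Sparcl1, Fabp4 and Icam1 were higher and Col15a1 and Lpl lower, and of 7 Dpp4+ markers Sema3c (−1.0) was lower.

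Signs of handling and of other cells were measured beside these calls. The 13 dissociation response genes summed to 24900, 26400 and 24900 CPM in young and 31000, 29600 and 24400 CPM in aged libraries, with Fos the most abundant, and Ier3, Hspa1a and Nr4a1 were higher with age. Barcodes of high doublet score made up more of the members in every aged library than in any young one. Without them 442 genes were called with age, 364 of the 412 among them. Of genes listed for other cell types, Plvap (−1.01, endothelial), Abcc9 (−0.77, mural) and S100b (−1.65, Schwann) were lower, and Car3 (0.92, adipocyte) was higher but stood at −0.026 without barcodes of high doublet score. Their part in the age calls was not tested. Of the age calls named for the lists, those of Car3 (4 of 13 alternatives), Abcc9 (6 of 15), S100b (6 of 13), Ifit3 (6 of 13), Bmp2 (6 of 14), Tgfbr1 (7 of 14), Gdf10 (7 of 15), Sema3c, Id3, Aspn and Hspa1a (9 of 15 each) were also kept under 9 or fewer. With members chosen on thinned counts C7 (0.439), Clu (0.266) and Cd9 (0.308) were not called, nor was Plau, and Plau and Nr4a1 were among the calls lost without either TN library.

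The temperature comparison asked what differs between TN and cold in the same cells, with age as a term and the 3D and 14D effects tested together in edgeR. By the mean of both effects, 45 genes (0.482%) were higher and 44 (0.471%) lower in cold. Mgp and Igfbp3 were higher in cold in both ages. TN and cold libraries did not overlap for 12.9% of all genes tested, and for 40 of the 89 called. Without the aged 14D library 492 genes were called, and without either TN library 7. Without the age term edgeR called 0 genes, with 395 at an unadjusted p below 0.05, and DESeq2 with the term called 51.

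Mgp stood at 299 and 357 CPM at TN, 730 and 722 CPM at 3D and 1020 and 833 CPM at 14D (young before aged). All 4 cold libraries lay above both TN libraries, with log2 changes of 1.15 at 3D and 1.50 at 14D (edgeR adjusted p = 0.00115 over both). Igfbp3 stood at 170 and 201 CPM at TN, 868 and 560 CPM at 3D and 430 and 438 CPM at 14D (young before aged). Its 3D libraries were the highest, and TN and cold did not overlap (1.94 and 1.22, edgeR adjusted p = 0.00115). Igfbp3 was also lowest at TN in the other fibroblasts, and a difference between populations in its cold effect was not tested. Pi16+ fibroblasts had 137, 351 and 244 CPM in young and 112, 243 and 205 CPM in aged libraries, and preadipocytes 41.3, 153 and 73.8 CPM and 21.5, 49.1 and 66.1 CPM. Mgp was lowest at TN in Pi16+ fibroblasts of both ages, and in young but not aged preadipocytes. The calls of Mgp and Igfbp3, and that of Sult1e1 below, were lost without the young TN library (mean changes 1.12, 1.29 and −0.77) and without the age term, and were kept under the other 13 of 15 alternatives. Igfbp5 rose at both times (0.63 and 1.14), and Igf1 was lower (−0.81 and −0.15).

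The 5 largest rises with at least 20 CPM and the same sign in both ages were Myoc, Prg4 (lubricin, 2.15), Ifitm1 (1.63, an interferon-induced membrane protein), Igfbp3 and Rgs16 (1.33, a regulator of G-protein signalling). Prg4 stood at 7.70 and 6.56 CPM at TN, 32.4 and 43.4 CPM at 3D and 37.6 and 12.2 CPM at 14D (young before aged). It occurred in 124 members, and 1 cell supplied 66.7% of its UMIs in the young 14D library. Fabp4 stood at 390 and 557 CPM at TN, 802 and 1290 CPM at 3D and 608 and 1380 CPM at 14D (young before aged), with log2 changes of 1.12 and 0.98.

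The 5 largest falls by the same rule were Mest (−1.30), Col6a6 (−1.27), Trf (transferrin, −1.25), Dkk2 (−1.24, a modulator of Wnt signalling) and Sult1e1. The value of Trf turned to 0.560, not called, with members chosen on thinned counts. Sult1e1, the estrogen sulfotransferase, stood at 871 and 824 CPM at TN, 281 and 403 CPM at 3D and 307 and 576 CPM at 14D (young before aged). Both TN libraries lay above all 4 cold libraries (−1.35 and −1.02, edgeR adjusted p = 0.00558). Sult1e1 was also highest at TN, in both ages, in Pi16+ fibroblasts and in preadipocytes. A difference between populations in its cold effect was not tested. Of 26 collagen and matrix genes 5 were lower and 0 higher: Col6a5 (−2.11), Col6a6, Col6a3 (−0.60), Col3a1 (−0.56) and Col6a2 (−0.42), with a median of −0.33. Of the mineral-related list Mgp was higher, and Aspn (−0.92), Ogn (−0.64) and Clec11a lower by the mean. Clec11a had effects of opposite sign at 3D and 14D (−0.67 and 0.36), as had Inmt (0.44 and −0.22), Apod (0.47 and −0.82) and Ifi27l2a (−0.69 and 0.82). Of imprinted genes Peg3 (1.27) was higher and Mest and Meg3 (−0.74) lower, and Gstt2 (0.89) of the xenobiotic list was higher. The temperature calls named here that were kept under 9 or fewer alternatives were those of Inmt (5 of 15), Gstt2 (7 of 15, with values down to 0.035), Rgs16 (7 of 13), Myoc (7 of 10), Clec11a (8 of 15), Dkk2 and Col6a5 (8 of 13 each), Prg4, Mest and Col6a6 (9 of 13 each) and Meg3 (9 of 15). Of the lists for other cells, 1 macrophage, 3 adipocyte, 1 endothelial, 7 mural and 3 Schwann genes and the 13 dissociation genes were abundant enough to be tested, and 0 were called. No red blood cell or epithelial gene was tested. The 5 red blood cell genes summed to 6.89, 70.4 and 72.2 CPM in young and 1.51, 8.55 and 6.67 CPM in aged members, lowest at TN in both ages, and their part in the temperature calls was not tested.

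**Figure D4:**
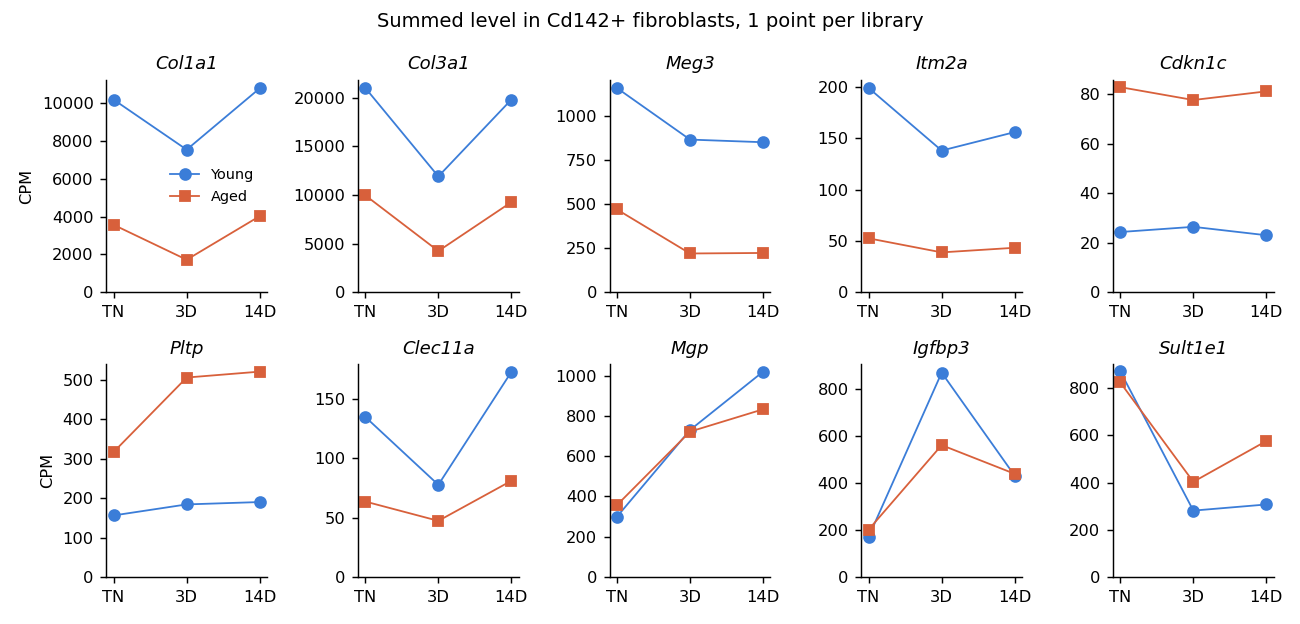
Level of 10 genes in the summed UMIs of Cd142+ fibroblasts (y axis, CPM from 0) at TN and after 3 (3D) and 14 (14D) days of cold (x axis), 1 point per library, blue circles for young and red squares for aged. Col1a1, Col3a1, Meg3, Itm2a, Cdkn1c and Pltp separate by age, and Mgp, Igfbp3 and Sult1e1 separate TN from cold.

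The age by cold comparison asked whether the step from TN to cold differs between ages, with 1 TN library per age. The comparison called 3 genes, all lower (0.0321% of genes tested): Acta2 (−4.58 ± 0.55), Tagln (−4.34 ± 0.42) and Tpm2 (−4.05 ± 0.42), genes of the smooth muscle cytoskeleton. Acta2 stood at 30.0, 70.0 and 63.3 CPM in young and 114, 3.94 and 21.1 CPM in aged libraries. The aged TN library was the highest and the aged 3D library the lowest, and 85 members carried the gene. The 9 mural genes, of which Acta2 is the most abundant, summed to 155, 260 and 251 CPM in young and 349, 85.5 and 147 CPM in aged libraries. Without barcodes of high doublet score the values were 1.342, 0.147 and 0.357, and edgeR called 0 genes, with 280 at an unadjusted p below 0.05 (DESeq2 on all members called 2).

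The last comparisons asked whether the age effect in Cd142+ fibroblasts differs from that in other fibroblasts of the same libraries, as a difference of log2 fold changes with library as a block. Against Pi16+ fibroblasts, 84 of 12444 genes (0.675%) had a higher and 73 (0.587%) a lower age effect. These 157 calls became 84 to 155 with 1 library left out, and 45 with equal thinned cells. Among called genes with a mean of at least 20 CPM in the Cd142+ sums, the 5 largest higher differences were Cdkn1c, C7, AC130815.2 (1.40), Pdgfrl (1.39) and Hpgd. AC130815.2 was called under 8 of 14 and Pdgfrl under 7 of 14 alternatives, and C7 and Hpgd under all 14. The age effect of Cdkn1c was 1.70 in Cd142+ and 0.07 in Pi16+ fibroblasts, a difference of 1.62 ± 0.14 (edgeR adjusted p = 9.35e-07), which was 0.444 and not called with members chosen on thinned counts. Pi16+ fibroblasts had 101, 106 and 92.9 CPM of it in young and 111, 106 and 98.1 CPM in aged libraries. C7, a terminal complement component, had 0.85 against −0.57 (difference 1.41 ± 0.16), and Hpgd, which degrades prostaglandins, 0.97 against −0.39 (1.39 ± 0.23). In preadipocytes the age effects of Cdkn1c, C7 and Hpgd were 1.36, 1.07 and 0.67. Their differences between Cd142+ fibroblasts and preadipocytes were not called. Itm2a was lower with age by less in Cd142+ than in Pi16+ fibroblasts (−1.87 against −3.01, difference 1.18). Of 28 collagen and matrix genes 7 had a higher and 1 a lower age effect (median difference 0.38), with Lox (1.38) the largest of the former and Col14a1 (−1.15) the latter. In preadipocytes the age effects of Itm2a, Lox and Col14a1 were −2.07, 0.50 and −1.40, and their differences from Cd142+ fibroblasts were not called.

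By the same limit, which Hbb-bs did not reach, the 5 largest lower differences were Ctla2a (−3.37), Ccbe1 (−2.18), Ifitm1 (−1.79), Eya2 (−1.42, a transcriptional coactivator) and C2. C2, complement component 2, had −0.43 in Cd142+ and 0.98 in Pi16+ fibroblasts (difference −1.42 ± 0.13), and the latter stood at 43.0, 39.8 and 43.9 CPM in young and 79.2, 87.2 and 83.2 CPM in aged libraries. Ctla2a occurred in 30 members. Pltp had a higher age effect in Pi16+ fibroblasts (1.32 in Cd142+ against 2.72), as had Cd9 (0.72 against 1.50). Cd9 also had a higher age effect in preadipocytes (1.43, difference −0.71, edgeR adjusted p = 0.000542). That of Pltp in preadipocytes was 0.93, and its difference was not called. Of the red blood cell list all 4 tested genes were lower against Pi16+ fibroblasts, led by Hbb-bs (−7.05). In Pi16+ fibroblasts Hbb-bs stood at 1.79, 78.0 and 1.55 CPM in young and 70.2, 286 and 111 CPM in aged libraries, an age effect of 3.79. Of the dissociation response list, 2 of 13 tested genes had a higher age effect in Cd142+ fibroblasts, Hspa1a (0.69) and Btg2 (0.70), and 0 a lower one. The part of the red blood cell and dissociation genes in the other calls was not tested.

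Against preadipocytes, 10 of 11722 genes (0.0853%) had a higher and 17 (0.145%) a lower age effect in Cd142+ fibroblasts. With 1 library left out 13 to 34 genes were called, and with equal thinned cells 9. Of 27 collagen and matrix genes 3 were lower and 0 higher (median difference −0.06, that of all genes −0.01). Col1a1 had −1.69 against −0.69 (difference −1.01 ± 0.11, edgeR adjusted p = 0.0003), and Col1a2 and Col3a1 differed by −0.72 and −0.70. Sparc, of the mineral-related list, differed by −0.75. In Pi16+ fibroblasts the age effects of Col1a1, Col1a2, Col3a1 and Sparc were −1.84, −1.27, −1.82 and −1.69, and none of their differences from Cd142+ fibroblasts was called. Preadipocytes were chosen by Col15a1, a collagen that was itself lower with age in members (−0.78). The part of that choice in the collagen differences was not tested. By the same limit, the 5 largest lower differences from preadipocytes were Arhgdib (−1.63), Ccbe1 (−1.52), Pi15 (−1.24), Tifa (−1.15) and Cd109 (−1.07). Slco2a1 was called under 9 of 14 and Cd109 under 4 of 14 alternatives, and Cd109 was lost in DESeq2 and with any 1 library left out. The 5 largest higher ones were Ptgis, Sox4 (1.36, a transcription factor), Slco2a1 (1.06), Efemp1 (0.87, an extracellular matrix glycoprotein) and Lbp (0.84, lipopolysaccharide binding protein). Ptgis, prostacyclin synthase, stood at 39.5, 36.9 and 39.6 CPM in young and 6.97, 4.75 and 10.8 CPM in aged preadipocytes, and Cd142+ fibroblasts at 23.1, 22.5 and 22.5 CPM in young and 13.1, 21.0 and 38.9 CPM in aged libraries (age effect −0.05 against −2.44, difference 2.37 ± 0.25). The aged preadipocyte libraries all lay below the young ones, while the Cd142+ libraries overlapped. Both comparisons share the same Cd142+ sums.

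**Figure D5:**
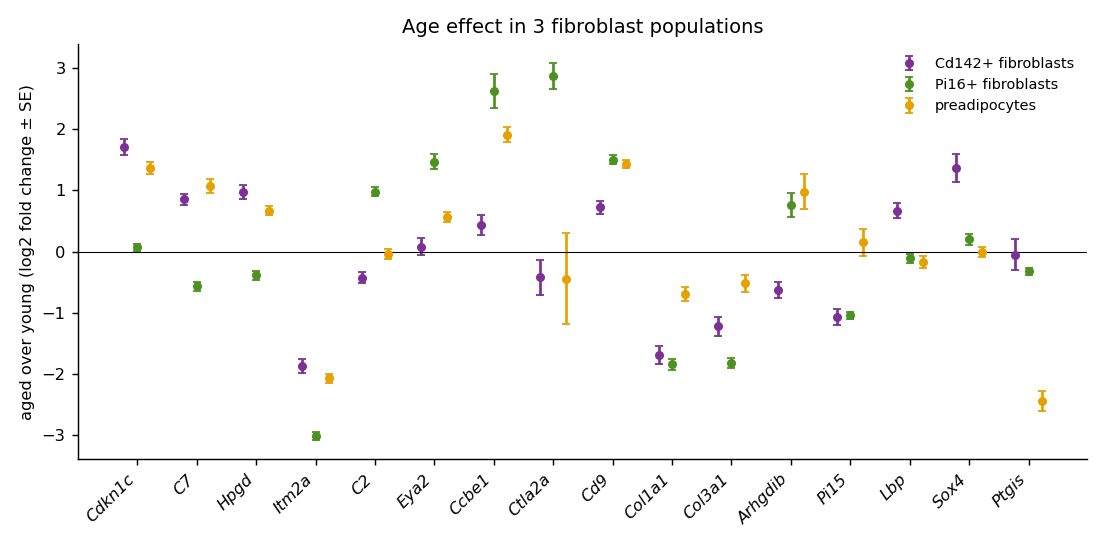
Log2 fold change of aged over young (y axis, ± SE from edgeR over 3 libraries an age) for 16 genes (x axis) in Cd142+ fibroblasts (purple), Pi16+ fibroblasts (green) and preadipocytes (yellow). Cdkn1c is at 1.70 in Cd142+ and 0.07 in Pi16+ fibroblasts, and Ptgis at −0.05 in Cd142+ fibroblasts and −2.44 in preadipocytes.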

How the data were processed

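Cells from 6 libraries, 1 per age and temperature, were measured by 10x 3' single-cell RNA sequencing. Per the labels, the authors processed the reads with Cell Ranger against mm10, and the deposited values are UMI counts per gene and barcode, not normalized. The submitters' processing notes also name Seurat and R 4.1.1. Libraries held 52068837 to 88508349 UMIs. No column belonged to no sample (0 such columns).

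Barcodes were selected and thinned in Python 3.11.15 (numpy 2.4.6, scipy 1.17.1, scikit-learn 1.9.0). Member UMIs were summed per library, filtered with filterByExpr, scaled by TMM and tested with edgeR 4.0.16 (glmQLFit and glmQLFTest, R 4.3.3), with Benjamini-Hochberg adjustment over all genes tested and 0.05 as the threshold. Age was fitted with temperature, temperature with age, and the age by cold term with both. Differences in age effect were fitted on paired sums with library as a block. Genes used to choose cells were left out of the tests they shaped. The cell share was compared by an exact permutation test.

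The genes named are those used to choose the cells, the markers, the largest changes among called genes with at least 20 CPM (10 each way for age, 5 for the others) and called members of the lists, with some further list members named after their values were seen. Some genes that this rule names are not reported here. Members and lists were chosen with earlier results of these data known. Alternatives were DESeq2 1.42.0, RLE factors, no filter on low counts, equal and thinned cells, stricter F3 or depth limits, removal of barcodes with high doublet scores, fits without the second term and each library left out. Each was changed alone, except that equal and thinned cells change the number of members and their depth together. Scripts were tested on simulated counts of a fixed spread. There the age fit found 43.3% of 2-fold and 98.5% of 4-fold changes, and the temperature fit 20.9% and 92.4%. The age by cold fit found 0% and 15.2%. The fits of differences found 14.9% and 75.8% against Pi16+ fibroblasts, and 4.48% and 87.9% against preadipocytes. A gene not called in these fits is therefore not shown to be unchanged. Intervals cover counting error only.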

Additional observations from a re-analysis of the deposited data

Results flagged for a closer look

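The following genes stood out because a test of the difference between 2 effects, in edgeR with Benjamini-Hochberg adjustment, passed 0.05. The step from TN to cold differed between aged and young mice for Acta2 by −4.58 ± 0.55 (log2, SE; adjusted p = 0.0075), for Tagln by −4.34 ± 0.42 and for Tpm2 by −4.05 ± 0.42 (both adjusted p = 0.00191), and these 3 values changed sign without barcodes of high doublet score.

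The age effect in Cd142+ minus that in Pi16+ fibroblasts was 1.62 for Cdkn1c, 1.41 for C7, 1.40 for AC130815.2, 1.39 for Pdgfrl and 1.39 for Hpgd. It was −3.37 for Ctla2a, −2.18 for Ccbe1, −1.79 for Ifitm1, −1.42 for Eya2 and −1.42 for C2. The largest adjusted p of these 10 was 0.041, for AC130815.2. Under 14 alternatives the call was kept by C7, Hpgd and C2 in all, by Cdkn1c and Ctla2a in 13, by Ccbe1 and Eya2 in 12, by Ifitm1 in 11, by AC130815.2 in 8 and by Pdgfrl in 7. Cdkn1c fell short with the rule on thinned counts, at 0.444. Of these 10 genes, Ccbe1 alone was also called in the comparison with preadipocytes.

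The age effect in Cd142+ fibroblasts minus that in preadipocytes was 2.37 for Ptgis, 1.36 for Sox4, 1.06 for Slco2a1, 0.87 for Efemp1 and 0.84 for Lbp. It was −1.63 for Arhgdib, −1.52 for Ccbe1, −1.24 for Pi15, −1.15 for Tifa and −1.07 for Cd109, which had the largest adjusted p of these 10, 0.0448. Under 14 alternatives the call was kept by Ptgis and Efemp1 in all, by Sox4 in 13, by Lbp in 12, by Pi15 in 11, by Arhgdib, Ccbe1 and Tifa in 10, by Slco2a1 in 9 and by Cd109 in 4.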

How the results depend on the processing

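Of the 412 genes called with age, DESeq2 called 148 in all, and the number was 715 with no filter on low counts, 138 with equal cells thinned to 2000 UMIs, 214 with the rule on thinned counts, 255 with F3 at 2 or more UMIs and 137 without the temperature term. Leaving out 1 library gave 129 to 564. The 89 temperature calls became 51 in DESeq2, 413 with no filter, 37 with equal thinned cells, 50 with the rule on thinned counts, 146 without high doublet scores and 0 without the age term (395 at an unadjusted p below 0.05), and 7 to 492 with 1 library left out. The 3 age by cold calls became 21 with no filter, 5 to 25 with 1 library left out, and 0 with equal thinned cells (146 at an unadjusted p below 0.05), the rule on thinned counts (154), F3 at 2 or more (290) and without high doublet scores (280), and could not be fitted without a TN library. The 157 differences from Pi16+ fibroblasts became 99 in DESeq2, 244 with no filter, 45 with equal thinned cells, 82 with the rule on thinned counts and 84 to 155 with 1 library left out. The 27 differences from preadipocytes became 142 with no filter, 9 with equal thinned cells, 51 with the rule on thinned counts, 41 at 4000 or more UMIs and 13 to 34 with 1 library left out. The cause of these changes was not tested. The difference in share between ages, −0.421 points, kept its sign throughout, from −0.892 to −0.0464 with 1 library left out.

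Of 120 calls of named genes, 36 were kept under every alternative; over all their 1703 alternatives 1314 kept the call, 376 lost it with the same sign and 13 changed sign. Values that changed sign were, for temperature, Trf (0.56), Apod (0.553) and Gpnmb (−0.003) with the rule on thinned counts, Clec11a (0.009) with F3 at 2 or more, Abca1 (−0.223 to 0.042 with 1 library left out, above 0 without the young TN library), and Ifi27l2a (−0.334 to 0.694, below 0 without any 1 aged library, and −0.089 without the age term). Without high doublet scores Acta2 (1.342), Tagln (0.147) and Tpm2 (0.357) changed sign for age by cold, and Car3 (−0.026) for age. The number of members, 141 in the smallest library, limits what low genes can show.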
